A study of Mus musculus with 6 samples.

Results

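The genes described here are 42 interferon-stimulated genes, given as a list of symbols. The rule itself uses no measured value, but the list was chosen with earlier results of these data known. All 42 were among the 12431 rows of the count table, and all 42 were among the 10514 genes that passed the filter on low counts. They were ordered by role into 6 genes for signalling and transcription factors, 6 for sensors of RNA and other nucleic acids, 17 for antiviral effectors, 7 for interferon-inducible GTPases, 3 for a PARP and DTX3L complex and 3 for class I antigen processing.

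The study asked how GPR174, a G protein-coupled receptor encoded on the X chromosome, shapes the response of B cells to culture. Follicular B cells (labelled CD21/35- CD23+) were sorted from spleens of male mice and held for 1 h in medium with no added stimulus. The WT group was Gpr174+/Y (3 libraries, 3 mice) and the KO group was Gpr174-/Y (3 libraries, 3 mice), in which tdTomato replaces the coding exon of Gpr174 in the germline, so that every cell of the animal lacked the receptor and not only B cells. No interferon was given to either group.

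Total counts per library ranged from 8452460 to 10944833, and values per library are given as CPM, counts normalised to the TMM-scaled size of the library. Gpr174 was counted at 121 to 136 CPM in WT and at 99.8 to 100.2 CPM in KO. The libraries read the 3′ ends of transcripts, and where these reads lie relative to the replaced exon was not tested, so the count is no check of the genotype labels. Of 10 follicular B cell markers, 9 were in the table, and their summed level was 5163 to 5408 CPM in WT and 5835 to 6112 CPM in KO. Cr2, which encodes CD21/35, had a mean (± SD, n = 3) of 1043 ± 34.4 CPM in WT against 1057 ± 96.8 CPM in KO, although the label gives the cells as CD21/35-. In bulk RNA, fewer cells of a type and less RNA per cell cannot be told apart.

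Interferons are cytokines, and those of type I are released by cells on sensing viral nucleic acid. Type I interferon binds a receptor made of IFNAR1 and IFNAR2, whose kinases phosphorylate STAT proteins, and STAT2 joins IRF9 in a complex that binds the interferon-stimulated response element. Type II interferon has a receptor of its own and turns on Irf1, GTPase and antigen-processing genes through a different site. Resting B cells carry both receptors and keep a low level of many of these genes.

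The stretches upstream of the transcription start where such sites lie are shown first, because members that carry them are compared below. The windows cover the 250 bases before each start (RefSeq, GRCm38.p6, the assembly also called mm10), and 35 of the 42 genes matched the promoter table. Usp18, Dhx58, Zbp1, Mx1, Rtp4, Parp9 and Parp14 did not match. The response element core was searched as GAAA, any 2 bases, then GAAA, and the STAT site core as TTCNNNGAA, both on either strand. The 5 promoters below were chosen after the values were seen, as genes whose levels are described in the text, and capitals mark every match to either core.

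Isg15 (chr4:156200842-156200911, minus strand): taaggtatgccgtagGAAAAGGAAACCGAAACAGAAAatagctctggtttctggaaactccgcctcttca
Ifit1 (chr19:34640770-34640839, plus strand): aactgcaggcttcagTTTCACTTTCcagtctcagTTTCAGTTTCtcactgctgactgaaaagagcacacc
Ifit3 (chr19:34583358-34583427, plus strand): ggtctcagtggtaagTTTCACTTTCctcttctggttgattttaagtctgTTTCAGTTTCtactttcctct
Irgm2 (chr11:58214898-58214956, plus strand): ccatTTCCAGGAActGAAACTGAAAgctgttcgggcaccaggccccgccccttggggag
Irf1 (chr11:53769909-53769978, plus strand): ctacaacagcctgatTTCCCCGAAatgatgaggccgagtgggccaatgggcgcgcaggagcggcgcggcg

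Isg15 held 3 overlapping response element cores, Ifit1 and Ifit3 held 2 each on the opposite strand, Irgm2 held a STAT site core beside a response element core, and Irf1 held a STAT site core alone. The response element core was found in 14 of 35 members (40%), against 2.98% of all 32851 windows. The STAT site core was found in 11 of 35 members (31.4%), against 7.02% of all windows. A member was counted when any of its windows matched, and 7 members had several windows. The shares of members are therefore per gene and the others per window, so they are not measured alike. A match to these letters is a description of the sequence and not evidence that a factor binds there.

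The set as a whole was slightly lower in WT than in KO. Of the 42 genes, 35 had a log2 fold change (WT over KO) below 0, or 83.3%, against 50.4% of all genes tested. The median was -0.18, with quartiles of -0.31 and -0.08, and the median over all genes tested was -0.0026. Single genes rarely passed the test: by edgeR's quasi-likelihood test with Benjamini-Hochberg adjustment over all genes, 1 of 42 members was called, where 1.82% of all genes were. That gene was Trim25, higher in WT, where 1.3% of all genes were called. All adjusted p below are from this test. In the direction that most members took, 0 were called, where 0.514% of all genes were. DESeq2 called 2 members lower (Irf9 and Tap1) and limma-voom called 0.

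At an unadjusted p under 0.05, 5 members were lower in WT (Irf9, Samhd1, Ifi47, Tap1 and Psmb8), against 5.37% of all genes, and 1 was higher (Trim25), against 6.5%. All 3 WT values lay below all 3 KO values in 4 of 42 members (Irf9, Stat2, Samhd1 and Gbp2). This share was near the 8.28% of all genes. They lay above them in 1 member (Trim25), against 8.43% of all genes. The values of both genotypes overlapped in the other 37 genes. The summed level of the members was 3073, 3509 and 3262 CPM in WT replicates 1 to 3 and 3378, 3791 and 3554 CPM in KO replicates 1 to 3. The highest WT library was therefore above the lowest KO library, and the log2 ratio of the genotype means was -0.12.

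**Figure D1:**
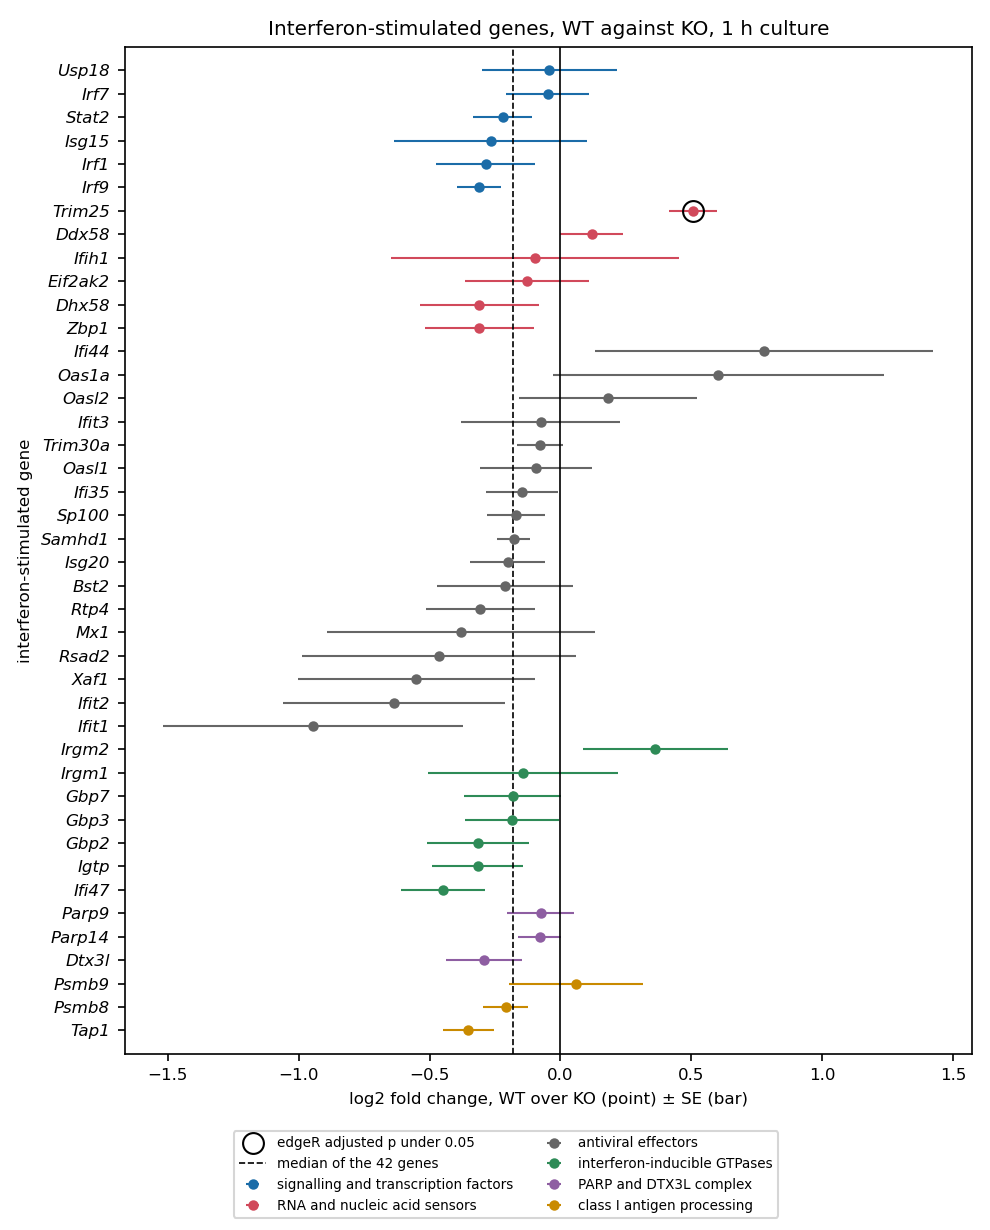
Log2 fold change of WT over KO (point) with its SE (bar) for each of the 42 genes, ordered and coloured by role. The dashed line is their median of -0.18, 35 points lie left of 0, and the ringed point is Trim25, the member called by edgeR.

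**Figure D2:**
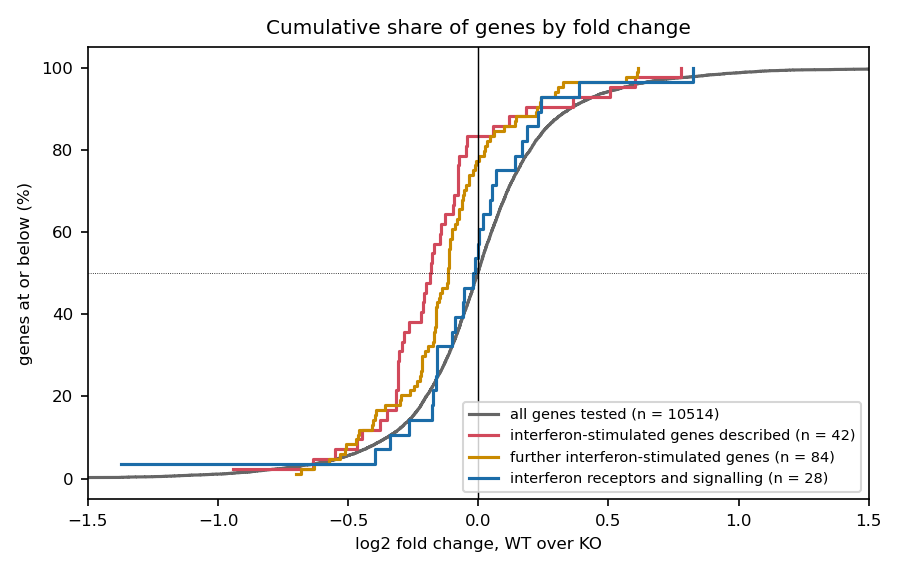
Cumulative percent of genes (vertical axis) at or below each log2 fold change of WT over KO (horizontal axis, shown from -1.5 to 1.5). The curve of the interferon-stimulated genes described crosses 50% at -0.18, that of further interferon-stimulated genes at -0.12, that of interferon receptors and signalling at -0.02, and that of all 10514 genes near 0.

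All 6 signalling and transcription factor genes had a negative fold change, with a median of -0.24, and none was called. Irf9, the DNA-binding subunit of the complex with STAT2, was measured at 153, 163 and 148 CPM in WT replicates 1 to 3 and at 173, 196 and 205 CPM in KO replicates 1 to 3. Every WT library was below every KO library. The estimate was -0.31 ± 0.08 (SE, adjusted p = 0.0536) on the log2 scale. Irf9 was past the threshold in 8 of the alternatives, in 2 of which a library was left out, and its adjusted p over the fits without a library ranged from 0.0323 to 0.349. Its reads may include those of Rnf31, which overlaps it on the same strand.

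Stat2, the partner of IRF9, was at 51.8, 63.6 and 53.9 CPM in WT and at 66.4, 64.2 and 66.4 CPM in KO. The groups did not overlap, although WT replicate 2 came close to KO replicate 2. WT over KO, this gave a log2 fold change of -0.22 ± 0.11 (SE, adjusted p = 0.452). Irf1, an early transcription factor of the type II response, was at 218, 337 and 303 CPM in WT and at 295, 381 and 370 CPM in KO. Replicate 1 was the lowest and replicate 2 the highest library of both genotypes, and the groups overlapped. Its log2 fold change was -0.29 ± 0.19 (SE, adjusted p = 0.66).

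Isg15, a ubiquitin-like modifier, was at 3.02, 8.11 and 6.24 CPM in WT and at 4.91, 10.2 and 5.65 CPM in KO. It had the same order as Irf1 at its extremes, with replicate 1 lowest and replicate 2 highest in each genotype. Its log2 fold change was -0.27 ± 0.37 (SE, adjusted p = 0.84). Usp18, the protease that removes ISG15 and a brake on the type I receptor, varied little, from 8.23 to 8.97 CPM in WT and from 8.18 to 9.47 CPM in KO. Irf7, an amplifier of type I interferon production, spanned 28.7 to 36.6 CPM in WT and 29.1 to 41.2 CPM in KO, with a log2 fold change of -0.05 ± 0.16 (SE).

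Among the 6 sensor genes, Trim25 was higher in WT and was the 1 member past the threshold. Trim25 (chr11:88999376-89020293, mm10, plus strand) encodes a ubiquitin ligase that acts on the RNA sensor RIG-I, and no other annotated gene overlaps it. It was at 415, 325 and 377 CPM in WT replicates 1 to 3 and at 294, 261 and 232 CPM in KO replicates 1 to 3. The groups did not overlap: the lowest WT library was above the highest KO library. The mean (± SD, n = 3) was 372 ± 45.2 CPM in WT against 262 ± 30.8 CPM in KO, and the log2 fold change was 0.51 ± 0.09 (SE, adjusted p = 0.00288). It was called in all 6 fits that each left out a library, with adjusted p from 5.78e-05 to 0.033, and under all other alternatives at the 0.05 threshold, with adjusted p from 4.75e-05 to 0.00625.

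Trim25 did not share the library pattern of most members, since replicate 1 was its highest library in each genotype. Ddx58, which encodes RIG-I itself, was at 82.3, 107 and 72.1 CPM in WT and at 76.5, 86.5 and 77.9 CPM in KO. The groups overlapped, and the log2 fold change was 0.12 ± 0.12 (SE, adjusted p = 0.769). The other 4 sensors had fold changes between -0.31 and -0.10, and none was called.

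Ifih1, the gene of the RNA sensor MDA5, was at 1.01, 5.84 and 2.72 CPM in WT and at 2.18, 3.16 and 4.78 CPM in KO. Its WT libraries alone spanned more than the KO range at both ends. Its standard error of 0.55 was far larger than its log2 fold change of -0.10, and its within-genotype SD of log2 CPM, 0.90, was the third largest among members with a mean of at least 20 counts. Dhx58, a regulator of the RNA sensors, spanned 10.9 to 13.7 CPM in WT and 12.01 to 18.5 CPM in KO. Zbp1, a sensor of Z-form nucleic acid, spanned 13.6 to 18.4 CPM in WT and 15.3 to 25.6 CPM in KO. Eif2ak2, the double-stranded RNA-dependent kinase PKR, spanned 8.51 to 17.3 CPM in WT and 14.3 to 16.7 CPM in KO.

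Of the 17 antiviral effectors, 14 had a negative fold change, the median was -0.18, and none was called. Samhd1, a dNTP hydrolase that limits reverse transcription, was at 615, 629 and 642 CPM in WT and at 701, 694 and 739 CPM in KO. The groups did not overlap, and the within-genotype SD of log2 CPM was 0.04. The log2 fold change was small, -0.18 ± 0.06 (SE, adjusted p = 0.194), and it was called by none of the alternatives run.

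The largest negative estimates came from effectors with few counts. Ifit1, which binds viral RNA that lacks host cap methylation, was at 0.915, 4.89 and 1.02 CPM in WT and at 3.004, 5.996 and 3.997 CPM in KO. WT replicates 1 and 3 were below all KO libraries, and WT replicate 2 was above KO replicates 1 and 3. The estimate on the log2 scale was -0.94 ± 0.57 (SE, adjusted p = 0.554), and over the fits without a library it ranged from -2.15 without WT replicate 2 to -0.55 without WT replicate 1.

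Ifit2, of the same family, was at 5.03, 2.86 and 2.61 CPM in WT and at 3.28, 8.50 and 4.78 CPM in KO. Here WT replicate 1 was the highest WT library, the reverse of Ifit1, and the groups overlapped, with a log2 fold change of -0.64 ± 0.42 (SE, adjusted p = 0.61). Xaf1, a pro-apoptotic gene, was at 3.66, 4.41 and 1.59 CPM in WT and at 3.19, 4.47 and 6.53 CPM in KO. The groups overlapped, with a log2 fold change of -0.55 ± 0.45 (SE, adjusted p = 0.703). Ifit3 was nearly level, with means (± SD, n = 3) of 8.65 ± 3.32 CPM in WT and 9.13 ± 3.18 CPM in KO.

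Ifi44, which encodes a GTP-binding protein of the antiviral response, had the largest positive estimate among members with a mean of at least 20 counts, and that estimate rested on 1 library. It was at 1.10, 8.82 and 1.59 CPM in WT and at 1.46, 3.05 and 2.14 CPM in KO. WT replicate 2 was above all other libraries, while WT replicate 1 was the lowest of all. The log2 fold change was 0.78 ± 0.65 (SE, adjusted p = 0.71), and without WT replicate 2 it was -0.72.

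Rsad2, which encodes viperin, an enzyme that makes a chain-terminating nucleotide, was at 47.5, 26.2 and 41.2 CPM in WT and at 71.3, 65.0 and 23.1 CPM in KO. KO replicate 3 was the lowest of the 6 libraries and KO replicate 1 the highest. Its log2 fold change was -0.47 ± 0.52 (SE, adjusted p = 0.816), and without KO replicate 3 it was -0.83 (adjusted p = 0.0467). Mx1, a dynamin-like restriction factor, was at 7.63 CPM in KO replicate 2 and at 2.14 to 3.39 CPM in the other 5 libraries.

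The remaining effectors had wide overlap between genotypes. Genes of the oligoadenylate synthetase family, which senses double-stranded RNA, had log2 fold changes of 0.60 ± 0.63 (SE) for Oas1a, -0.09 ± 0.21 (SE) for Oasl1 and 0.18 ± 0.34 (SE) for Oasl2. Bst2, the tetherin that holds budding virus at the membrane, and Trim30a, a TRIM-family ubiquitin ligase, had changes of -0.21 ± 0.26 (SE) and -0.08 ± 0.09 (SE). Isg20 (an RNA exonuclease), Rtp4, Ifi35 and Sp100 (a nuclear body protein) had changes between -0.31 and -0.15, with adjusted p from 0.59 to 0.752.

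**Figure D3:**
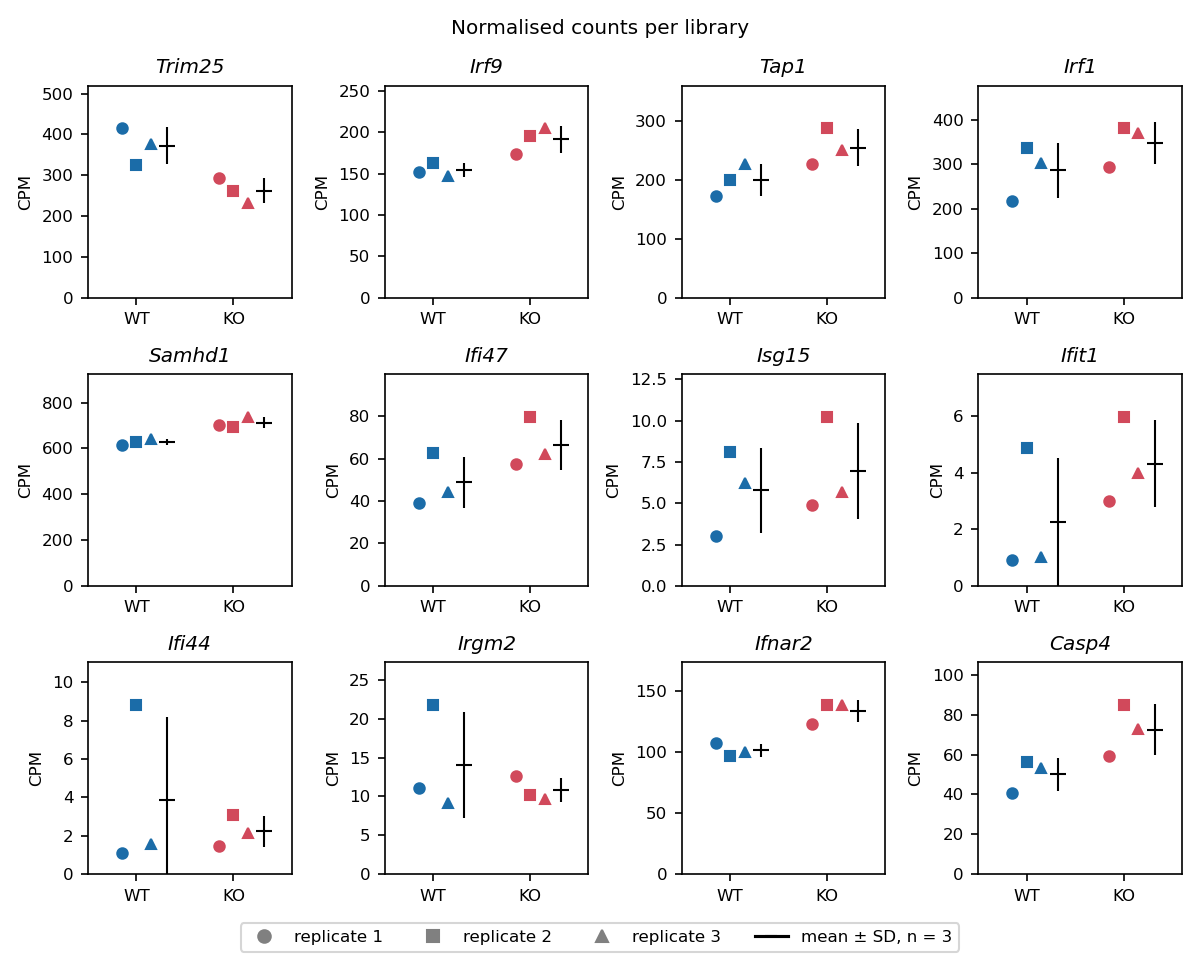
CPM in each library (vertical axes start at 0) for 10 members and for Ifnar2 and Casp4, WT in blue and KO in red, with mean ± SD (n = 3) beside the points and bars that would pass below 0 ending at the axis. Trim25 lies higher in WT and Irf9, Samhd1, Ifnar2 and Casp4 lie lower with no overlap, while in Ifi44 the WT replicate 2 library stands at 8.82 CPM above all others.

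Of the 7 interferon-inducible GTPase genes, whose products act at pathogen vacuoles, 6 had a negative fold change, and none was called. Ifi47 was at 39.2, 62.6 and 44.5 CPM in WT and at 57.3, 79.9 and 62.1 CPM in KO. Replicate 2 was the highest library of each genotype, and WT replicate 2 overlapped the KO range. The log2 fold change was -0.45 ± 0.16 (SE, adjusted p = 0.227), and without WT replicate 2 it was -0.67 (adjusted p = 0.00632). An olfactory receptor gene, Olfr56, overlaps Ifi47 on the same strand.

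Gbp2, a guanylate-binding protein, was at 14.7, 17.8 and 14.5 CPM in WT and at 18.5, 21.9 and 18.1 CPM in KO. The groups did not overlap, with WT replicate 2 just below KO replicate 3, and the log2 fold change was -0.32 ± 0.20 (SE, adjusted p = 0.566). Irgm2, a regulator of the other GTPases, was the exception in direction, at 11.1, 21.8 and 9.20 CPM in WT and at 12.7, 10.2 and 9.65 CPM in KO. Its WT mean was raised by replicate 2, and the log2 fold change of 0.36 ± 0.28 (SE, adjusted p = 0.674) was -0.10 without that library. Igtp, which overlaps Irgm2 on the same strand so that their reads may be mixed, had a change of -0.32 ± 0.17 (SE). Irgm1, Gbp3 and Gbp7 had changes between -0.18 and -0.14.

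The 3 genes of the PARP and DTX3L complex had fold changes below 0. Parp9 and Dtx3l, which encode a paired ADP-ribosyltransferase and ubiquitin ligase, overlap on opposite strands, and their log2 fold changes were -0.08 ± 0.13 (SE) and -0.29 ± 0.15 (SE). Parp14, a further ADP-ribosyltransferase, was at 166, 181 and 154 CPM in WT and at 170, 178 and 181 CPM in KO, with overlap and a change of -0.08 ± 0.08 (SE). None of the 3 was called.

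In class I antigen processing, Tap1, a subunit of the peptide transporter into the endoplasmic reticulum, was at 173, 199 and 227 CPM in WT and at 226, 287 and 251 CPM in KO. The groups overlapped by a narrow margin, with WT replicate 3 just above KO replicate 1. The log2 fold change was -0.35 ± 0.10 (SE, adjusted p = 0.075). Over the fits without a library its adjusted p ranged from 0.0244 to 0.347, and 2 of those 6 called it, without KO replicate 1 and without WT replicate 3. Psmb8, an immunoproteasome subunit, had a change of -0.21 ± 0.09 (SE, adjusted p = 0.318).

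Psmb9, another immunoproteasome subunit, did not share this direction: it was at 105, 201 and 133 CPM in WT and at 134, 154 and 133 CPM in KO. WT replicate 1 was the lowest and WT replicate 2 the highest of all libraries, and the change was 0.06 ± 0.26 (SE). Tap1 and Psmb9 overlap on opposite strands. In all, 17 members lie across another annotated gene of the opposite strand and 8 across a gene of the same strand, and because the use of strand in counting was not given in the sources used here, the reads of such pairs cannot be told apart.

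The members varied more between mice of the same genotype than the median gene did. The within-genotype SD of log2 CPM had a median of 0.27 over the 42 members and 0.19 over all genes tested. Among the 22 members with a mean of at least 20 CPM the median SD was 0.20, against 0.13 over all genes at that level. Over members of all levels, the SD was lowest for the PARP and DTX3L complex, with a median of 0.15, and highest for antiviral effectors, with a median of 0.42. The level of these groups also differed, with medians of 48.2 CPM and 11.0 CPM. Among members of at least 20 CPM, the median SD was 0.15 for the effectors (6 genes), no higher than for the complex. It was then highest for the GTPase genes, at 0.29 (4 genes).

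This spread was shared between members. In WT, replicate 2 was the highest of its 3 libraries in 27 of 42 members (64.3%), against 35.4% of all genes tested. In KO, replicate 2 was the highest in 28 of 42 (66.7%), against 34.3% of all genes. In 19 members replicate 2 was the highest library in each genotype (45.2%, against 12.4% of all genes). This joint share largely follows from the separate shares of WT and KO. Over the 42 members, the deviations of same-numbered libraries had correlations of 0.31, 0.05 and -0.21 for replicates 1 to 3. Those of other numbers ranged from -0.47 to 0.38. A correlation over genes does not measure a shift that most members have in common. The replicates of both genotypes share only a number, since the labels do not tie a WT mouse to a KO mouse.

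The median deviation from the genotype mean was 0.19 on the log2 scale in WT replicate 2 and 0.15 in KO replicate 2. It was -0.12 in WT replicate 1, -0.06 in WT replicate 3, -0.14 in KO replicate 1 and -0.04 in KO replicate 3. All genes tested had medians within 0.01 of 0 in every library. The scaling of libraries and the centring on the genotype mean largely fix that value, so it is no control for the members. The median within-genotype SD of the members was 0.27, and the median log2 fold change between genotypes was -0.18. The first is a spread of single libraries gene by gene and the second rests on group means. The sizes of these values are therefore not measured alike.

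**Figure D4:**
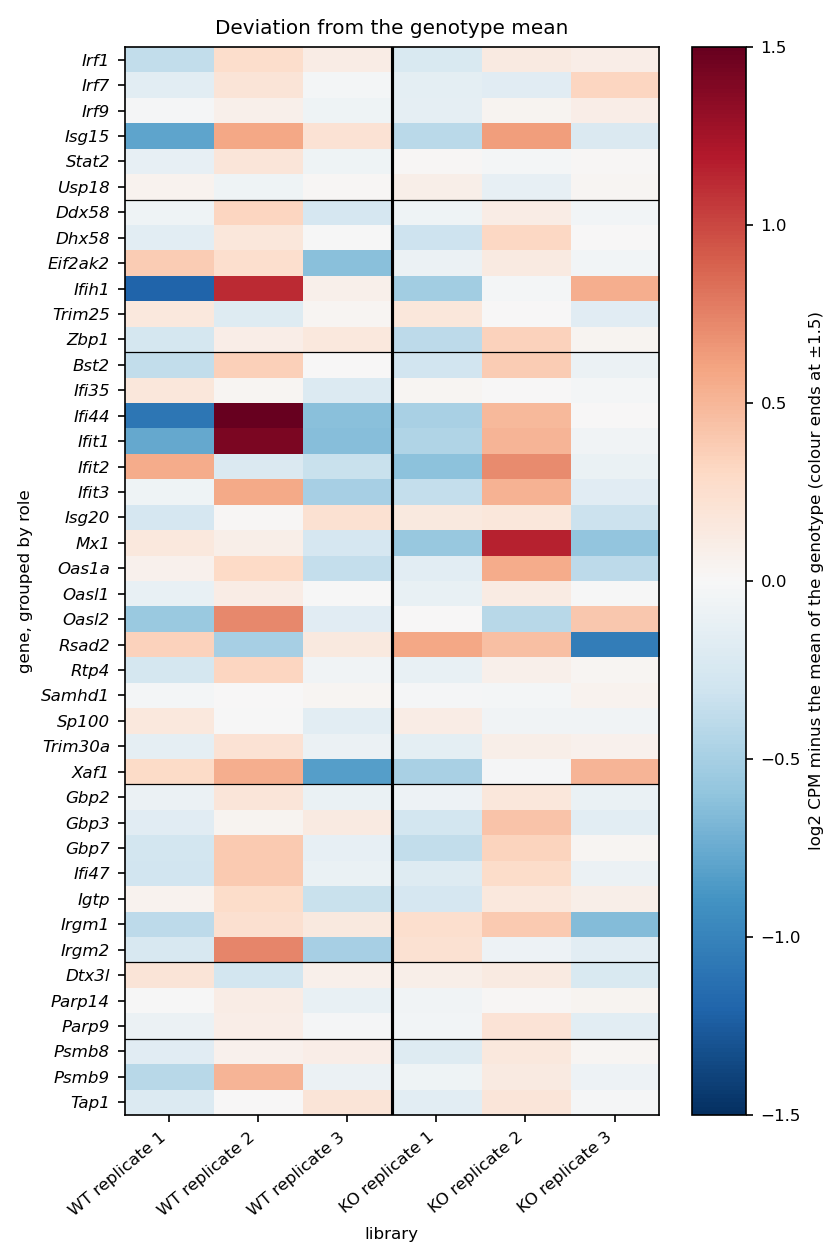
Deviation of log2 CPM from the genotype mean for each member (rows, grouped by role) in each library (columns), with red above and blue below the mean and colours ending at 1.5 in either direction. The replicate 2 columns are mostly red in WT and in KO, and the replicate 1 columns are mostly blue.

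**Figure D5:**
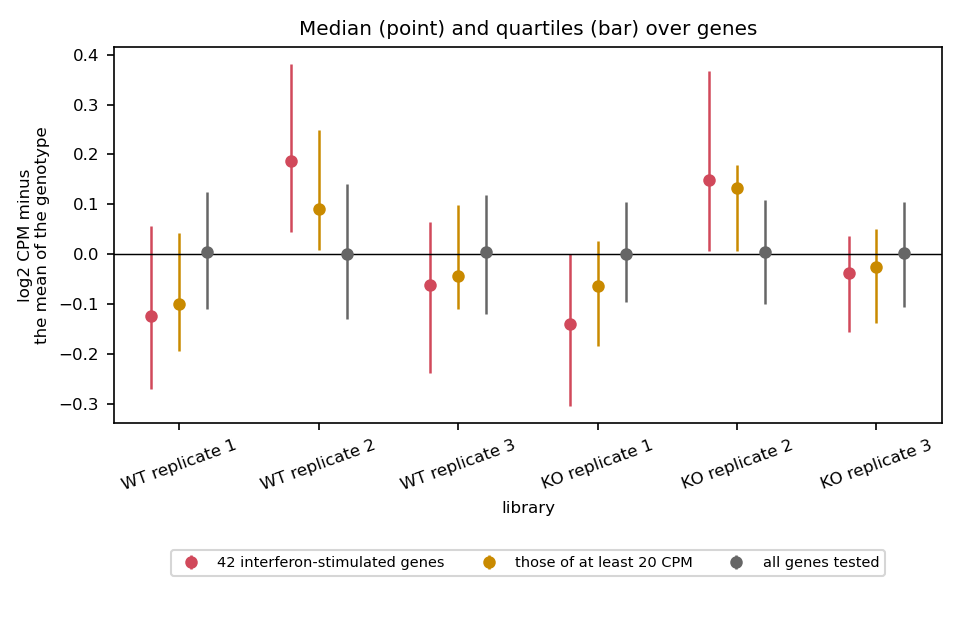
Median (point) and quartiles (bar) of the log2 deviation from the genotype mean in each library, for the 42 members, for the 22 members with a mean of at least 20 CPM and for all genes tested. Members lie highest in replicate 2 of each genotype, at 0.19 in WT and 0.15 in KO. All genes stay within 0.01 of 0, which the scaling and centring largely fix.

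The GTPase genes carried this pattern most often, with replicate 2 highest in 6 of 7 genes in each genotype and in 5 of 7 in both. Gbp7 showed it plainly, at 32.8, 52.2 and 36.6 CPM in WT and at 35.0, 56.9 and 46.0 CPM in KO. Replicate 2 stood above both of its neighbours in each genotype, and the difference between genotypes was smaller than that step. Replicate 1 was instead the highest of each genotype in 5 members, namely Usp18, Trim25, Rsad2, Ifi35 and Sp100. That is 11.9% of members, about the share of all genes tested (11.8%). The level in WT replicate 2 was 6.57 times the mean of the other WT libraries for Ifi44, 5.05 times for Ifit1 and 3.13 times for Ifih1, each with few counts.

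Members with a response element core in the window, such as Isg15, Ifit1 and Ifit3 above, varied more between libraries than members without it. The 14 with the core had a median within-genotype SD of 0.39, and the 21 without it 0.23. Their median deviation was 0.29 in WT replicate 2 and 0.38 in KO replicate 2, against 0.11 and 0.12 for the others. Their median level was also lower, at 15.02 CPM against 49.7 CPM, and its part in this difference was not tested. The fold change between genotypes was close in both, with a median of -0.20 with the core and -0.17 without it.

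The direction of the set held in every fit, but its size moved with single mice. Without WT replicate 2, the median log2 fold change was -0.28 and 40 of 42 members were lower in WT. Without WT replicate 1 it was -0.11 with 31 lower, and without KO replicate 2 it was -0.12 with 30 lower. The other 3 omissions gave medians from -0.23 to -0.19.

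Markers of other cells also differed between libraries. The 10 myeloid markers, all in the table, summed to 65.1 to 92.4 CPM in WT and 54.3 to 65.0 CPM in KO, and replicate 2 was the highest library of each genotype. The 6 NK cell markers in the table, of 7, summed to 8.06 to 15.5 CPM in WT and 5.92 to 6.76 CPM in KO, and the 7 T cell markers in the table, of 10, to 46.7 to 62.6 CPM in WT and 34.8 to 53.9 CPM in KO. Marginal zone B cell markers, 6 of 6 in the table, summed to 703, 883 and 818 CPM in WT and to 661, 917 and 748 CPM in KO, again with replicate 2 highest. Plasma cell markers, 5 of 5 in the table, stayed between 103 and 127 CPM. Replicate 2 was the highest library of each genotype for the NK and plasma cell lists as well, but not for the T cell list in KO, where replicate 3 was highest.

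Of 8 plasmacytoid dendritic cell markers, Siglech and Klk1 were not among the rows used here, and the other 6, which include the member Bst2 and genes that B cells also express, summed to 2671 to 3126 CPM in WT and 2996 to 3298 CPM in KO, with replicate 2 highest in each. Erythroid markers, 3 of 6 in the table, were uneven within KO, at 7569, 7500 and 3010 CPM, and spanned 2679 to 4714 CPM in WT. None of these markers was called outside the follicular B cell list, in which Cd79b, a subunit of the B cell receptor, and Blk, a B cell kinase, were lower in WT. The part of any of these cells in the member values was not tested.

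Other genes of the pathway were taken from a pair of lists. For interferon receptors and signalling, 30 genes were listed, 29 were in the table and 28 were tested. Their median log2 fold change was -0.02, with 16 lower and 12 higher, and 1 was called (lower in WT, as were 0.514% of all genes). For further interferon-stimulated genes, 104 were listed, 92 were in the table and 84 were tested. Their median was -0.12, with 65 of 84 lower in WT (77.4%, against 50.4% of all genes), and 3 were called, all lower, against 0.514% of all genes called in that direction.

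Ifnar2, the signalling chain of the type I receptor, was at 107, 96.5 and 100.02 CPM in WT and at 123.3, 139 and 139 CPM in KO. Reads of Ifnar2 may include those of Gm21970, which overlaps it on the same strand. The groups did not overlap, and the log2 fold change was -0.40 ± 0.09 (SE, adjusted p = 0.0158), so Ifnar2 was lower in WT. The call was lost without KO replicate 2, without KO replicate 3 and without WT replicate 3, with an adjusted p of up to 0.141. Ifnar1, its partner chain, did not share this, at 81.3, 84.9 and 68.3 CPM in WT and at 82.8, 69.1 and 75.5 CPM in KO, with a change of 0.04 ± 0.11 (SE, adjusted p = 0.92).

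The 3 further interferon-stimulated genes called lower in WT were Phf11b, Casp4 and Slfn8. Phf11b, listed in the table under an older name, was at 49.6, 62.2 and 67.8 CPM in WT and at 79.9, 95.8 and 80.1 CPM in KO. The groups did not overlap, and the log2 fold change was -0.51 ± 0.12 (SE, adjusted p = 0.0163). Reads of Phf11b may be split with its near-identical family members.

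Casp4, a caspase that senses cytosolic lipopolysaccharide, was at 40.8, 56.4 and 53.5 CPM in WT and at 59.3, 85.1 and 73.1 CPM in KO. No WT library reached the lowest KO library, and the log2 fold change was -0.53 ± 0.14 (SE, adjusted p = 0.0437). Slfn8, of the Schlafen family, was at 47.4, 54.7 and 50.4 CPM in WT and at 58.1, 80.3 and 71.7 CPM in KO. Again the groups did not overlap, and the log2 fold change was -0.46 ± 0.12 (SE, adjusted p = 0.0475). Each of these calls was lost on leaving out single libraries: for Phf11b without WT replicate 1, KO replicate 2 or KO replicate 3, with an adjusted p of up to 0.181, and for Casp4 and Slfn8 without any of WT replicates 1 and 3 and KO replicates 2 and 3, with an adjusted p of up to 0.303 and 0.335.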

How the data were processed

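Deposited values were raw read counts per gene for 6 libraries. The authors made 3′ end libraries (QuantSeq), aligned single-end reads to mm10 with STAR and counted them with HTSeq. Versions, annotation and strand setting were not given in the sources used here. Rows summed to at least 10 counts, and 0 sample columns were left unused. WT and KO were compared in edgeR (version 4.0.16, R 4.3.3) by the quasi-likelihood F test with robust dispersions after filterByExpr and TMM scaling, two-sided, with Benjamini-Hochberg adjustment over 10514 genes and a threshold of 0.05. The SD of log2 CPM used a prior count of 2. Replicates differed beyond sampling noise (chi-square per degree of freedom 6.89 to 10.9). The members, gene lists and tests were chosen with earlier results of these data known, and no list was tested as a set. Values in every library are given for members called and for the 3 with the highest mean CPM. Among members with a mean of at least 20 counts, they are given for the 3 largest fold changes in each direction and 3 largest SDs. The same holds for pathway genes called, Ifnar1 and Ifnar2 (1 further pathway gene is left out here). Irf9, Stat2, Isg15, Ddx58, Rsad2, Ifi47, Gbp2, Gbp7, Parp14, Tap1 and Psmb9 were added after their values were seen. So were Ifit3, given as means, and Mx1, given as 1 library and the range of the others. Gene positions are from GENCODE M21. On simulated counts, unadjusted p-values were calibrated and fold changes were recovered, but adjusted calls were false somewhat more often than the nominal share, so calls near the threshold are less secure than their adjusted p states. Tried in its place were limma-voom (version 3.58.1), the DESeq2 (version 1.42.0) of the study, other scalings and filters, ordinary dispersions, the replicate number as a block, an adjusted p threshold of 0.01, omission of each library and, added after seeing the data, members of at least 20 CPM.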

Additional observations from a re-analysis of the deposited data

How the results depend on the processing

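Trim25 was called in every alternative, and the median log2 fold change stayed below 0, from -0.28 to -0.11 over the omissions of a library. Members called numbered 1 in the main test, 3 with DESeq2 (Irf9 and Tap1 added), 2 (Irf9 added) with library totals, with upper-quartile factors, without a filter and with a filter at a mean of 50 counts and 1 to 3 over omissions. Irf9 was added without KO replicate 1 and without WT replicate 2, Tap1 without KO replicate 1 and without WT replicate 3, Ifi47 without WT replicate 2 and Rsad2 without KO replicate 3. Pathway genes called numbered 4 in the main test, 0 at an adjusted p under 0.01 and 0 to 6 over omissions: 0 without KO replicate 2 or KO replicate 3, and 1 without WT replicate 3. These counts pool both directions. The calls without WT replicate 1 included Socs3 and Stat3, which were higher in WT (log2 fold changes of 0.83 and 0.23 in the main test, not called there). Slfn8 lost its call with limma-voom (adjusted p 0.0606) and with ordinary dispersions (0.0663), and Casp4 with ordinary dispersions (0.0566). Genes called over the whole table numbered 191, 95 at an adjusted p under 0.01 and 91 to 183 over omissions, with 113 without KO replicate 2 and 91 without KO replicate 3. The median within-genotype SD of members was 0.23 among those with a mean of at least 50 counts, 0.20 among those of at least 20 CPM and 0.24 to 0.29 over omissions. Over the named genes and alternatives, 16 values gained and 17 lost a call.

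With the replicate number as a block, 5 members were called (Trim25, Irf9, Tap1, Ifi47 and Irf1), 7 pathway genes (among them Socs3, higher in WT) and 281 genes in all. The numbers were not taken to pair the samples, since the labels do not tie them and the correlations of same-numbered deviations over all genes were 0.01 to 0.05. Over all genes of at least 20 CPM these correlations were 0.17, 0.10 and 0.09, and those of other numbers were at most 0.02. All 6 libraries correlated best with their own number in the other genotype over all genes, which is a hint from the data and not from the design.

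Among the 20 members under 20 CPM the median within-genotype SD of log2 CPM was 0.47, against 0.20 for the other 22. Over all genes tested under 20 CPM it was 0.37. How much of this is counting error and how much lies between the 3 mice of a group was not tested.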
